A study of Homo sapiens with 6 samples.

Results

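The genes described here encode the subunits of the 5 oxidative phosphorylation complexes, in RNA-seq read counts of the human lung cancer line H2122. Gene symbols were chosen by family name (NDUF, SDH, UQCR, COX and ATP5 subunit symbols, and MT-ND, MT-CO, MT-CYB and MT-ATP), which matched 152 of 59050 symbols. Of these, 82 were nuclear protein-coding subunit genes, 13 were encoded by mitochondrial DNA (mtDNA), 1 was ATP5IF1, an inhibitor of ATP synthase, and 56 were pseudogenes or other non-coding symbols. The nuclear genes comprised 36 of complex I, 4 of complex II, 9 of complex III, 15 of complex IV and 18 of complex V. NDUFA4 was counted in complex IV, where its protein is placed. The pattern of symbols did not take in COX4I1, CYC1 or NDUFAB1, which also encode subunits and are given apart.

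There were 3 libraries with the genotype SMARCA4 KO and 3 of the parental line, all from cells given vehicle and grown in serum-supplemented RPMI-1640. SMARCA4 codes for an alternative motor subunit of SWI/SNF complexes, which remodel chromatin. The number in the sample titles was 1 for all 3 knockout libraries and 1, 3 and 6 for parental replicates 1, 2 and 3, and the labels do not say what it marks. Were it a clone number, the knockout libraries would all be of 1 clone, and effects of the clone and of the knockout cannot be told apart. The labels do not state separate cultures for the replicates, so the p-values reflect only the spread between these samples, which may be technical.

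Oxidative phosphorylation passes electrons from NADH and succinate through complexes I to IV to oxygen and uses the resulting proton gradient to make ATP at complex V. Complexes I, III, IV and V combine proteins made in the cytosol from nuclear genes with a small core made inside mitochondria from mtDNA, whereas all subunits of complex II are nuclear. The nuclear genes are scattered over the chromosomes, and many are regulated by the factors NRF1, GABP and YY1 and the coactivator PGC-1alpha. The mtDNA genes are transcribed as long precursors that are cut into separate RNAs, so their levels are not independent of each other.

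Each library held 55120937 to 59917980 reads assigned to genes, and 3 counts, the detection limit used here, amounted to 0.0497 to 0.0544 CPM (counts scaled to a common library size after TMM scaling). Such limits cover counting error alone. SMARCA4 itself was at 19.3 to 24.9 CPM in the knockout libraries and at 214 to 335 CPM in the parental ones. Parental replicate 3 was far from the other 5 libraries on principal component 2, with 19.0% of the variance over all genes tested, so counts below are given with and without it. Of 6 carcinoma markers, 5 fell (edgeR quasi-likelihood test, adjusted p under 0.05). For this and the other marker lists, the reference is 13.3% rising and 14.3% falling among all genes tested. The 6 carcinoma markers summed to 3157 to 3422 CPM in the knockout, against 6931 to 7700 CPM in the parental libraries. Their log2 fold changes ran from -5.94 to -0.42, with a median of -1.58. KRT19, an epithelial keratin, averaged 31.8 ± 0.69 CPM in the knockout, against 1344 ± 114 CPM in the parental libraries (SD, n = 3 each). Among markers of other cell types, blood markers summed to 0.436 to 0.745 CPM in the knockout, against 1.37 to 1.86 CPM in the parental libraries, with 2 of 3 tested members falling and PTPRC at 0 reads in every library. Fibroblast markers summed to 53.4 to 58.1 CPM in the knockout, against 39.3 to 110.1 CPM in the parental libraries. Of 3 tested members, 2 rose and 1 fell, with log2 fold changes from -1.46 to 6.18 and a median of 5.00. Endothelial markers summed to 0.907 to 1.40 CPM in the knockout, against 0.510 to 0.560 CPM in the parental libraries, with 1 of 2 tested members rising. The part of these shifts in the results below was not tested. As the libraries are bulk RNA, fewer cells with a transcript and less transcript per cell cannot be told apart.

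Few nuclear subunit transcripts differed between the SMARCA4 knockout and parental cells by more than the spread between libraries. Of 76 nuclear subunit genes tested, 5 rose, 1 fell and 70 did not pass at an adjusted p under 0.05 (edgeR quasi-likelihood test, Benjamini-Hochberg adjustment over 17809 genes). The 5 that rose were NDUFA1 of complex I, UQCRC1 of complex III, COX6C and COX7A2 of complex IV and ATP5PD of complex V, by 0.35 to 0.67 on the log2 scale. COX6B2, an isoform gene of complex IV, fell by 2.94 on the log2 scale. Among the nuclear subunit genes 6.58% rose and 1.32% fell, against 13.3% rising and 14.3% falling among all genes tested, 27.6% in either direction. Their median log2 fold change was 0.09, with 50 above and 26 below 0, and the median over all genes tested was 0.02. At an unadjusted p under 0.05, 12 of the 76 rose and 1 fell. The share of all genes at that unadjusted threshold was not counted, so these counts have no exact reference. It can be no lower than the 13.3% rising and 14.3% falling at the adjusted threshold. A further 6 nuclear genes were too low to test: COX6A2 and COX7B2 had 0 reads in every library, COX7A1 and COX8C had 2 and 3 reads in all, ATP5MGL had at most 2 and UQCRHL at most 9 reads per library.

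Without parental replicate 3 the picture of the nuclear genes was different. Then 55 of 76 rose (72.4%), 1 fell and 20 did not pass, with a median log2 fold change of 0.27. Over all 18372 genes tested in that fit, 30.8% rose and 30.8% fell, 61.6% in either direction, and the median was 0.04. The nuclear subunit transcripts summed to 7180, 6667 and 6432 CPM in knockout replicates 1 to 3, and to 5217, 5151 and 8424 CPM in parental replicates 1 to 3. Parental replicate 3 thus lay above, and parental replicates 1 and 2 below, all 3 knockout libraries. Parental replicate 3 was the highest of 6 libraries for 60.5% of the nuclear subunit genes and for 32.3% of all genes tested. It lay above both other parental libraries for 92.1% of them, against 45.7% of all genes. All 3 knockout libraries lay above parental replicates 1 and 2 for 88.2% of the nuclear subunit genes, against 41.7% of all genes. Relative to the mean of parental replicates 1 and 2, the median level was 1.25 times as high in the knockout mean and 1.46 times as high in parental replicate 3. That last ratio ran from 0.686 for NDUFA13 to 4.09 for ATP5MC1, which encodes the c subunit of the ATP synthase rotor.

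**Figure D1:**
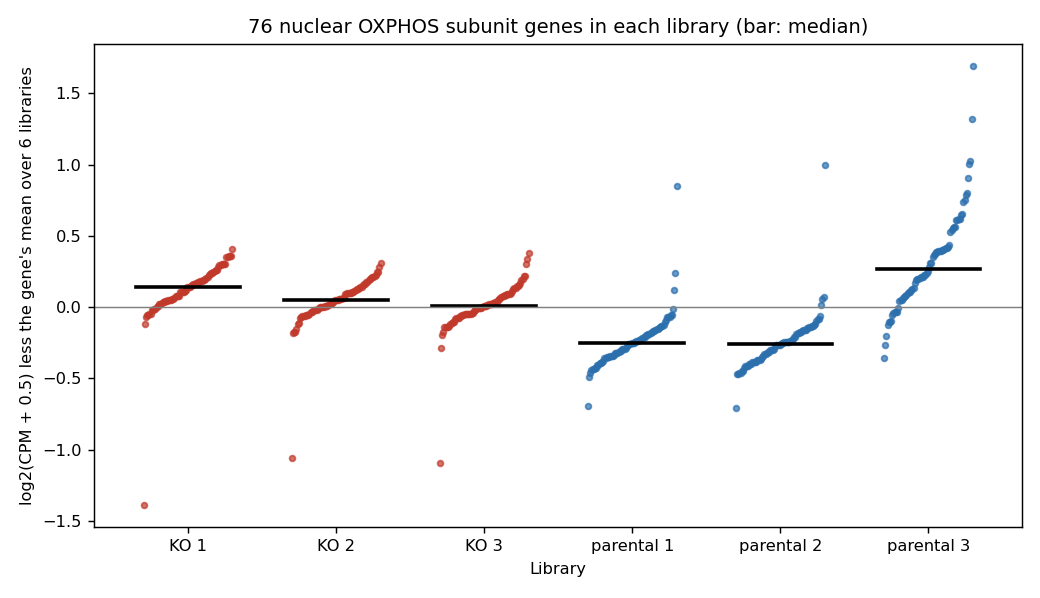
Each of the 76 nuclear subunit genes tested is a point in each library (KO 1 to 3, knockout; parental 1 to 3), placed by its log2(CPM + 0.5) less the gene's mean over the 6 libraries; bars are medians. The knockout libraries have medians of 0.14, 0.05 and 0.01, between parental 1 and 2 (-0.25 and -0.26) and parental 3 (0.27).

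The promoters of 3 of the changed genes are shown because 2 of the 4 rising genes searched hold a match to a factor known for this gene set and the 1 falling gene holds none. Sequences are from RefSeq (GRCh38.p14), from 250 bases before to 50 after the start of the gene in RefSeq, on the strand of the gene, with motif matches in capitals. The window of UQCRC1 lies at chr3:48609597-48609896, ATP5PD at chr17:75046920-75047219 and COX6B2 at chr19:55354670-55354969, all on the minus strand. The capitals mark a YY1 core in UQCRC1, 23 bases after the start, and an ETS core, the GABP motif, in ATP5PD on the opposite strand, 102 bases before it.
UQCRC1: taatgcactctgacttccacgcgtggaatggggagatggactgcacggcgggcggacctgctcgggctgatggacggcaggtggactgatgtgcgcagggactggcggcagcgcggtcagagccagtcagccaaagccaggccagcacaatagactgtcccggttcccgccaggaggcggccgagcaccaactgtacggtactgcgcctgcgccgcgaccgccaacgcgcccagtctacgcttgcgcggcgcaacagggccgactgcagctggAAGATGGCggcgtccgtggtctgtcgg
ATP5PD: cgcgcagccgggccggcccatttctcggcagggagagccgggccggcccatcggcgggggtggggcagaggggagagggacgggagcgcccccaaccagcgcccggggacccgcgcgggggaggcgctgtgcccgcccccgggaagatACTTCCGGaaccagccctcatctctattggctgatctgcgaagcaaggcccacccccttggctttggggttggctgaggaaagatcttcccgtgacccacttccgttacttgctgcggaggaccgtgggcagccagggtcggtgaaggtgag
COX6B2: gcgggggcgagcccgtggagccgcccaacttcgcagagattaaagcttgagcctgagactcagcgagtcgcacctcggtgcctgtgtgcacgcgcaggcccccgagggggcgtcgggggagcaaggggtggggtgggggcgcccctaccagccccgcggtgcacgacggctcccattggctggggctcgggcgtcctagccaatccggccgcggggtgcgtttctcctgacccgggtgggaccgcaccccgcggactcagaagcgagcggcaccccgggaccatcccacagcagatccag
Promoters were matched for 66 of the 82 nuclear genes and were searched on both strands for GCGCATGC (NRF1 core), CCGGAAGT (ETS core) and AAGATGGC (YY1 core). NRF1 cores were found in 19.7% of the subunit promoters and 3.74% of 22199 promoters of protein-coding genes. ETS cores were found in 15.2% against 5.34%, and YY1 cores in 16.7% against 3.53%. At least 1 of the 3 was held by 42.4% of the subunit promoters and 11.6% of all. Tested genes with a match had a median log2 fold change of 0.12 (n = 28) and those without one had 0.11 (n = 35); without parental replicate 3 the medians were 0.28 and 0.26. The promoter windows of NDUFA1 and COX7A2, which also rose, held none of the 3 motifs, and COX6C, the other rising gene, was not searched. The COX7A2 window was 37.0% G and C with 0 CG pairs, against medians of 61.2% and 23 over the subunit promoters. Whether the RefSeq starts are those used in these cells was not tested. A match is a description of the letters and no evidence of binding.

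Complex I, the NADH dehydrogenase, had 1 of 36 nuclear genes rising and none falling, with a median log2 fold change of 0.10. For this and the other complexes, the reference with all 6 libraries is 13.3% rising and 14.3% falling among all genes. NDUFA1 (chromosome X, 119871487 to 119876662 on GRCh38), a small subunit of the membrane arm, was at 59.4, 56.1 and 54.2 CPM in the knockout and at 42.6, 41.6 and 42.4 CPM in the parental libraries. All knockout libraries lay above all parental ones, and parental replicate 3 lay between the other parental libraries. Its log2 fold change was 0.42 (SE 0.09, edgeR adjusted p = 0.0152), and 44.5% of its annotated exon bases are shared with another gene. The core subunits that carry electrons from NADH were less even across the parental libraries. NDUFV1, which binds NADH, was at 161, 158 and 166 CPM in the knockout and at 109, 114 and 156 CPM in the parental libraries (0.35, 95% interval -0.03 to 0.74, edgeR adjusted p = 0.152). NDUFS1, the large iron-sulfur subunit of the same arm, was at 188, 178 and 163 CPM in the knockout and at 119, 110 and 176 CPM in the parental libraries (0.39, 95% interval -0.09 to 0.86, adjusted p = 0.199). For NDUFV1 the groups did not overlap, whereas for NDUFS1 the parental replicate 3 value fell among the knockout ones. The complex I log2 fold changes ran from -0.20 for NDUFA9 to 0.44 for NDUFA6 (adjusted p = 0.106). NDUFV2, NDUFA7 and NDUFA13 averaged 0.450, 0.359 and 1.08 CPM in the knockout, against 0.404, 0.277 and 0.804 CPM in the parental libraries, and 28.4%, 33.5% and 21.0% of their exon bases are shared with other genes; the part of that sharing in these low levels was not tested. Summed over the complex, the nuclear genes gave 2022, 1944 and 1870 CPM in the knockout, against 1552, 1529 and 2241 CPM in the parental libraries. Without parental replicate 3, 22 of 36 rose and none fell, with a median of 0.25, where 30.8% of all genes rose and 30.8% fell.

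Complex II, succinate dehydrogenase, links the citric acid cycle to the electron transport chain, and none of its 4 genes passed the edgeR test. SDHC, a membrane anchor, was at 194, 187 and 181 CPM in the knockout and at 157, 161 and 160 CPM in the parental libraries. These groups did not overlap, but the difference did not pass (log2 fold change 0.23, 95% interval 0.01 to 0.44, adjusted p = 0.11). SDHB, the iron-sulfur subunit, was at 61.7, 58.9 and 55.9 CPM in the knockout and at 49.3, 47.2 and 116 CPM in the parental libraries. Its sign depended on parental replicate 3: the log2 fold change was -0.27 (adjusted p = 0.628) with it, and without it the gene rose by 0.24. SDHA, the catalytic flavoprotein, averaged 14.6 ± 0.24 CPM in the knockout, against 13.5 ± 3.4 CPM in the parental libraries (SD, n = 3 each; edgeR adjusted p = 0.701). All 4 genes rose without parental replicate 3, with a median log2 fold change of 0.26, where 30.8% of all genes rose and 30.8% fell.

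Complex III, which passes electrons from ubiquinol to cytochrome c, had 1 of 8 tested nuclear genes rising and none falling, with a median log2 fold change of 0.03. UQCRC1 (chromosome 3, 48599002 to 48610976), a core protein on the matrix side, was at 262, 244 and 242 CPM in the knockout and at 143, 142 and 184 CPM in the parental libraries. All knockout values lay above all parental ones, and the log2 fold change of 0.67 (SE 0.13, edgeR adjusted p = 0.013) was the highest among the nuclear subunit genes with all 6 libraries. UQCRB, a small subunit next to the ubiquinone site, was at 164, 148 and 143 CPM in the knockout and at 101, 96.2 and 133 CPM in the parental libraries (0.46, adjusted p = 0.0685). The Rieske iron-sulfur gene UQCRFS1 was at 66.2, 60.5 and 59.7 CPM in the knockout and at 57.6, 53.9 and 138 CPM in the parental libraries. Its log2 fold change was -0.42 (95% interval -1.33 to 0.49, adjusted p = 0.455), and 0.11 without parental replicate 3, where it did not pass either. The lowest log2 fold change of the complex, -0.43, was that of UQCR10 (adjusted p = 0.303). CYC1, the cytochrome c1 gene outside the symbol pattern, was at 99.9, 93.3 and 94.7 CPM in the knockout and at 78.8, 71.4 and 185 CPM in the parental libraries, with parental replicate 3 alone above the knockout. Its log2 fold change was -0.22 (adjusted p = 0.702), and without parental replicate 3 it rose by 0.31. Without parental replicate 3, 5 of 8 rose and none fell, with a median of 0.29, where 30.8% of all genes rose and 30.8% fell.

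Complex IV, cytochrome c oxidase, had 2 of 11 tested nuclear genes rising and 1 falling, with a median log2 fold change of 0.31. COX7A2 (chromosome 6, 75237675 to 75250323), the widely expressed subunit 7A, was at 87.2, 79.6 and 76.7 CPM in the knockout and at 59.6, 60.6 and 66.1 CPM in the parental libraries (0.39, SE 0.10, edgeR adjusted p = 0.0314). COX6C (chromosome 8, 99873200 to 99894062), another accessory subunit, was at 68.3, 63.8 and 64.2 CPM in the knockout and at 48.5, 48.9 and 56.4 CPM in the parental libraries (0.35, SE 0.10, adjusted p = 0.0469). In both genes all knockout libraries lay above all parental ones. COX5B was at 79.4, 71.8 and 65.8 CPM in the knockout and at 48.6, 47.4 and 65.0 CPM in the parental libraries, also without overlap, but did not pass (0.43, adjusted p = 0.0923). COX5A was at 186, 169 and 167 CPM in the knockout and at 152, 145 and 231 CPM in the parental libraries, and its log2 fold change was -0.01 (adjusted p = 0.969), and without parental replicate 3 it rose by 0.18. NDUFA4 was at 123, 108 and 106 CPM in the knockout and at 81.9, 81.5 and 105 CPM in the parental libraries (0.32, adjusted p = 0.141). COX4I1, the main isoform gene of subunit 4 and outside the symbol pattern, rose (258.5, 247.4 and 234.7 CPM in the knockout, against 150.7, 147.5 and 202.5 CPM in the parental libraries; 0.56, edgeR adjusted p = 0.0366), a call lost with any library but parental replicate 3 left out. It was the 1 of 7 tested genes outside the pattern to pass (4 rose without parental replicate 3), and NDUFAB1, the acyl carrier protein of complex I, had a log2 fold change of -0.32 (adjusted p = 0.504). Without parental replicate 3, 10 of the 11 genes rose and COX6B2 fell, with a median of 0.38, where 30.8% of all genes rose and 30.8% fell.

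COX6B2 (chromosome 19, 55349306 to 55354814) encodes the testis isoform of subunit 6B, which replaces the product of COX6B1 on the side of the complex that faces the intermembrane space. It was at 0.707, 1.02 and 0.977 CPM in the knockout and at 5.18, 5.81 and 9.71 CPM in the parental libraries. Every knockout value was below every parental one, with 40, 56 and 59 reads in the knockout against 296, 347 and 552 in the parental libraries. The log2 fold change of -2.94 (SE 0.32, edgeR adjusted p = 0.00129) kept its sign and passed in all 14 alternative fits, with -2.65 without parental replicate 3. Of its annotated exon bases, 30.9% are shared with another gene. COX6B1 was at 136, 124 and 122 CPM in the knockout and at 88.9, 90.3 and 129 CPM in the parental libraries (0.31, adjusted p = 0.239). Per annotated length, COX6B2 made up 0.128%, 0.201% and 0.196% of the reads of the pair in the knockout, against 1.41%, 1.55% and 1.81% in the parental libraries, so COX6B1 was the main isoform gene in all 6. Among the other widely expressed isoform genes, COX6A1 had a log2 fold change of 0.15 (edgeR adjusted p = 0.361), COX7B 0.36 (adjusted p = 0.214) and COX8A 0.05 (adjusted p = 0.893). Other tissue-restricted isoforms were at or near 0 in both groups: COX6A2 and COX7B2 at 0 reads in all libraries, COX7A1 at 2, COX8C at 3 and COX4I2 at 1 read in all. NDUFA4L2, a paralogue of NDUFA4, had 42, 61 and 50 reads in the knockout, against 54, 60 and 7 in the parental libraries, the 7 in parental replicate 3, and did not pass (log2 fold change 0.36, edgeR adjusted p = 0.722).

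**Figure D2:**
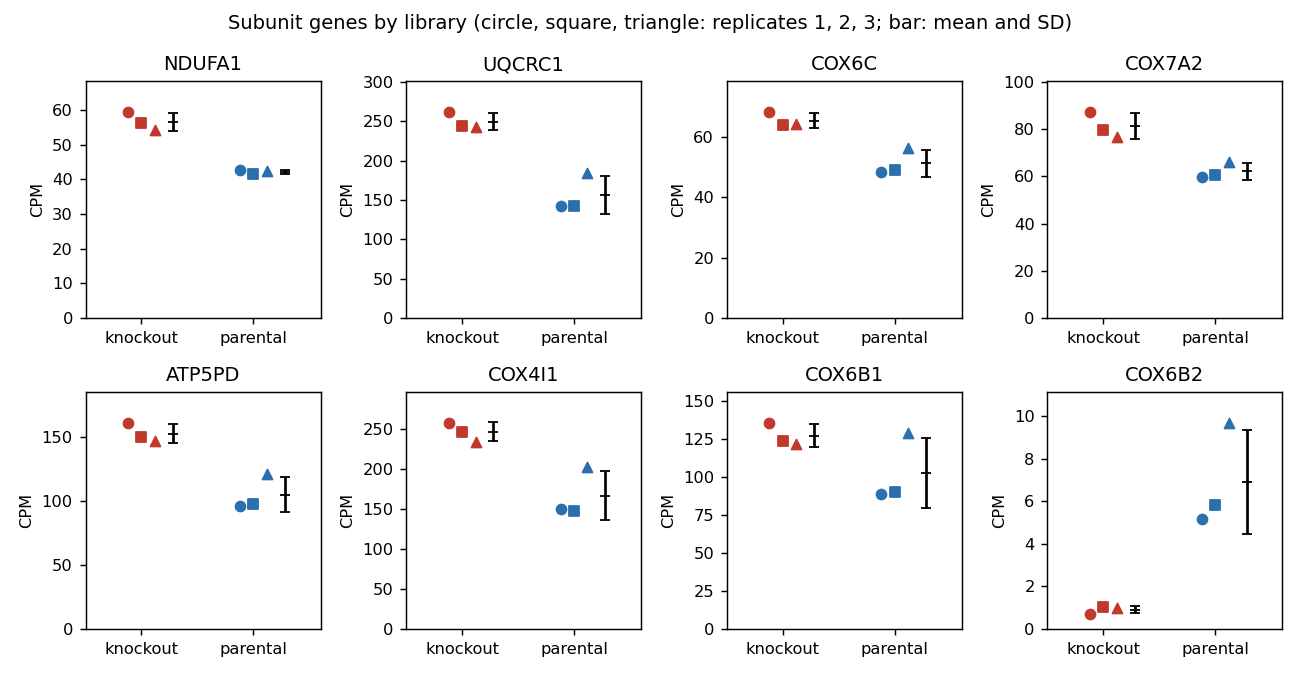
CPM by library for the 5 nuclear subunit genes that rose, COX4I1, COX6B1 and COX6B2, with knockout left of parental, symbols for replicates 1 to 3 and a bar for the mean and SD. Knockout libraries lie above all parental ones in NDUFA1, UQCRC1, COX6C, COX7A2, ATP5PD and COX4I1, overlap with them in COX6B1 and lie below them in COX6B2 (0.707 to 1.02 against 5.18 to 9.71 CPM).

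Complex V, ATP synthase, had 1 of 17 tested nuclear genes rising and none falling, and its median log2 fold change was -0.06. ATP5PD (chromosome 17, 75038863 to 75046985), which encodes subunit d of the stalk that holds the catalytic head still, was at 161, 150 and 147 CPM in the knockout and at 96.1, 97.7 and 121 CPM in the parental libraries. All knockout values were above all parental ones (0.54, SE 0.13, edgeR adjusted p = 0.0224), and 19.1% of its exon bases are shared with other genes. The catalytic subunit gene ATP5F1B had the highest level per length of the nuclear subunit genes, 374 CPM per kilobase in the knockout, against 361 in the parental group. It was at 943, 846 and 816 CPM in the knockout and at 612, 613 and 1292 CPM in the parental libraries (0.05, 95% interval -0.72 to 0.82, adjusted p = 0.927). ATP5F1A, the other major subunit of the catalytic head, was at 417, 379 and 357 CPM in the knockout and at 315, 314 and 594 CPM in the parental libraries. Its log2 fold change was -0.09 (adjusted p = 0.847) with all libraries, and without parental replicate 3 it rose by 0.24. Of the c-subunit genes, ATP5MC1 was at 64.4, 57.6 and 56.5 CPM in the knockout and at 36.0, 35.5 and 146 CPM in the parental libraries (-0.29, adjusted p = 0.751), and without parental replicate 3 it rose by 0.69. ATP5MC2 was at 196, 182 and 174 CPM in the knockout and at 117, 111 and 157 CPM in the parental libraries (0.52, adjusted p = 0.0552), without overlap. The inhibitor gene ATP5IF1, whose product blocks ATP hydrolysis by the enzyme, was at 39.4, 35.6 and 38.8 CPM in the knockout and at 50.3, 47.1 and 78.4 CPM in the parental libraries. It did not pass with all libraries (-0.63, adjusted p = 0.0726) and fell without parental replicate 3 (-0.41). In that same fit 14 of the 17 nuclear subunit genes rose and none fell, with a median of 0.25, where 30.8% of all genes rose and 30.8% fell.

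**Figure D3:**
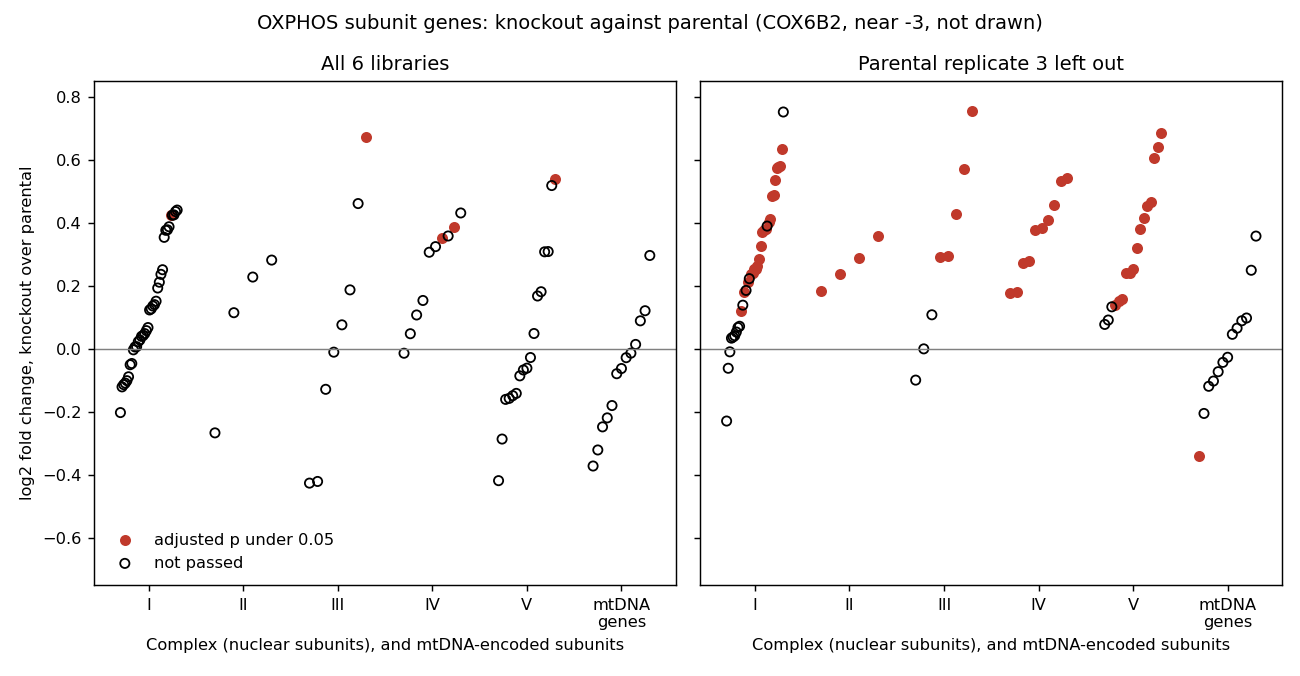
Log2 fold change, knockout over parental, of each tested nuclear subunit gene by complex and of the 13 mtDNA genes, from all 6 libraries (left) and with parental replicate 3 left out (right); filled points passed an adjusted p under 0.05, and COX6B2 is not drawn. On the left 5 nuclear points are filled and on the right 55, while the mtDNA genes have no filled point on the left and 1, MT-ND3, on the right.

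The calls of the 5 rising genes did not hold when most single libraries were left out, and calls over all genes fell as well. Over all genes 2365 rose with all 6 libraries, and 1221 to 1298 with 1 knockout library left out. Without parental replicate 1 or 2, 1642 and 1719 rose. Each of the 5 missed the threshold when any knockout library or parental replicate 1 was left out, and 4 of them, all but UQCRC1, when parental replicate 2 was. For example, UQCRC1 had edgeR adjusted p-values of 0.0481 to 0.0661 when a library other than parental replicate 3 was left out, with log2 fold changes of 0.61 to 0.70. In 16 of the 76 nuclear genes (21.1%) all knockout libraries lay above all parental ones, against 27% of all genes tested, and in 1 gene they lay below, against 22.8% of all genes.

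The mtDNA genes encode the membrane core of complexes I, III, IV and V, and none of the 13 passed the edgeR test with all libraries. Among all genes tested, 13.3% rose and 14.3% fell. At an unadjusted p under 0.05, 1 fell and none rose, with no share of all genes counted at that threshold. That share can be no lower than the one at the adjusted threshold. DESeq2 called 1 falling, MT-ND3, and limma-voom none. Their median log2 fold change was -0.06, with 4 above and 9 below 0. MT-ND3, of complex I, was at 406.8, 476.3 and 498.0 CPM in the knockout and at 543.9, 583.1 and 659.8 CPM in the parental libraries. It was the only mtDNA subunit gene whose groups did not overlap (-0.37, 95% interval -0.70 to -0.05, edgeR adjusted p = 0.091). It fell without parental replicate 3 (-0.34), where 30.8% of all genes fell. Over all genes tested with 6 libraries, the knockout lay wholly below the parental group for 22.8% and wholly above it for 27%. MT-ND1, also of complex I, was at 3677, 4402 and 5115 CPM in the knockout and at 3134, 3513 and 4095 CPM in the parental libraries. It had the highest log2 fold change of the 13 (0.30, edgeR adjusted p = 0.276). MT-CYB, the mtDNA subunit of complex III, averaged 3894 ± 644 CPM in the knockout, against 3855 ± 222 CPM in the parental libraries (SD, n = 3 each; edgeR adjusted p = 0.96). The oxidase core genes MT-CO1, MT-CO2 and MT-CO3 had log2 fold changes of -0.18, -0.01 and -0.32 (adjusted p = 0.453, 0.966 and 0.357). The ATP synthase genes MT-ATP6 and MT-ATP8 had -0.25 and -0.22 (adjusted p = 0.434 and 0.524). The other complex I genes lay closer to 0, with log2 fold changes of 0.09 for MT-ND2, -0.08 for MT-ND4, -0.06 for MT-ND4L, -0.03 for MT-ND5 and 0.12 for MT-ND6 (edgeR adjusted p = 0.671 to 0.919).

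The 13 mtDNA genes kept the same order of libraries within the knockout group. All 13 were lowest in replicate 1 and highest in replicate 3 among the knockout libraries. Among the parental libraries all 13 were lowest in replicate 1, but the ratio of replicate 3 to the mean of replicates 1 and 2 ran from 0.977 for MT-CYB to 1.56 for MT-CO3. Among the 76 nuclear genes, knockout replicate 1 was the lowest knockout library for 5 and knockout replicate 3 the highest for 7. The mtDNA genes held 3.91%, 4.63% and 5.50% of gene reads in the knockout, against 4.40%, 4.99% and 5.29% in the parental libraries. The groups overlapped, and the mean was 4.68% ± 0.80 in the knockout, against 4.89% ± 0.45 in the parental libraries (SD, n = 3 each). Per length, the highest mtDNA level was that of MT-CO2, 7151 CPM per kilobase in the knockout, against 7218 in the parental group. The lowest was MT-ND6, the only 1 of the 13 encoded on the light strand, at 136 CPM per kilobase in the knockout, against 125 in the parental group. Parental replicate 3 was the highest of 6 libraries for 8 of the 13. Nuclear copies of mtDNA can share its reads: MTATP6P1 on chromosome 1 held 11.98% to 12.44% of the reads of MT-ATP6 and itself in every library, and MTND2P28 held 2.38% to 2.50% of those of MT-ND2 and itself. Of 8 such copies tested, 1 rose both with and without parental replicate 3, MTND1P23, at 1.30 ± 0.29 CPM in the knockout, against 0.726 ± 0.072 CPM in the parental libraries (SD, n = 3 each; edgeR adjusted p = 0.04), a call lost with any library but parental replicate 3 left out. The mitochondrial 12S rRNA gene MT-RNR1 was at 813, 887 and 901 CPM in the knockout and at 1330, 1543 and 921 CPM in the parental libraries. It did not pass (-0.54, adjusted p = 0.0998), and it fell without parental replicate 3 (-0.78). The 16S rRNA gene MT-RNR2 passed in neither fit (-0.14, adjusted p = 0.551 with all 6 libraries).

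**Figure D4:**
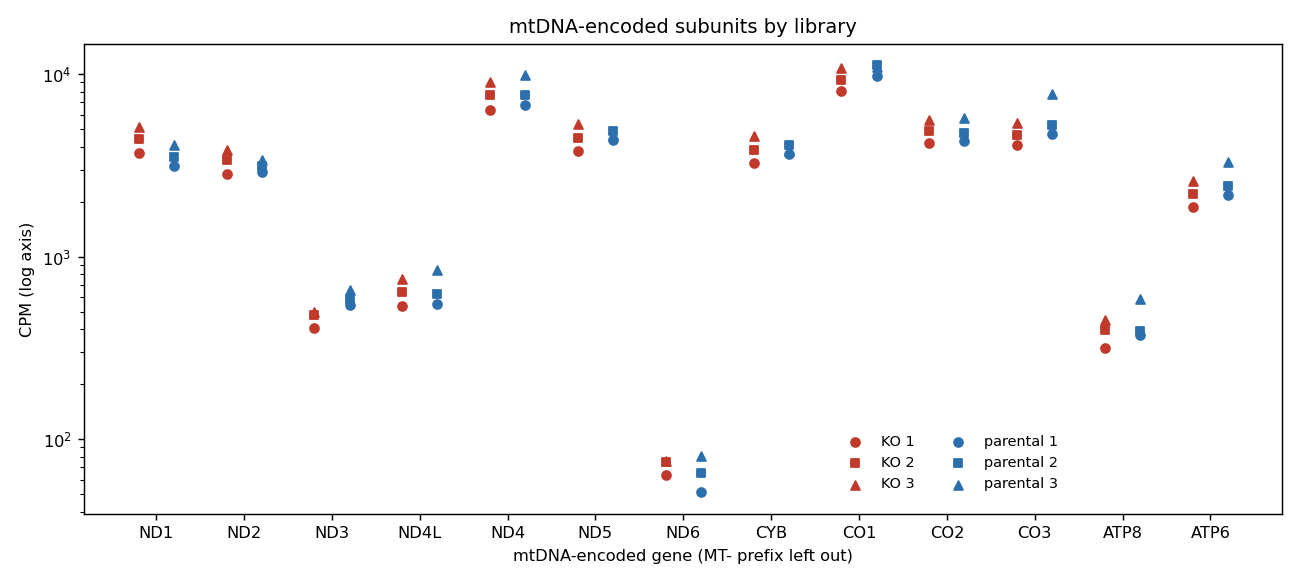
CPM on a log axis of the 13 mtDNA-encoded subunit genes in each library, with the 3 knockout libraries (KO 1 to 3) left of the 3 parental ones for each gene. Replicate 1 (circle) is the lowest and replicate 3 (triangle) the highest knockout library in every gene, and the groups stay apart for MT-ND3 alone (406.8 to 498.0 against 543.9 to 659.8 CPM).

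Among 13 regulators of mitochondrial genes, 2 rose, 3 fell and 8 did not pass (edgeR adjusted p under 0.05), where 13.3% of all genes rose and 14.3% fell. In the fit without parental replicate 3, 2 rose and 6 fell, where 30.8% of all genes rose and 30.8% fell. PPARGC1A, which encodes the coactivator PGC-1alpha, was at 43.2, 41.4 and 38.0 CPM in the knockout and at 2.45, 1.66 and 2.99 CPM in the parental libraries. Every knockout library was far above every parental one, with a log2 fold change of 4.11 (SE 0.24, adjusted p = 0.000143) that passed in all 14 alternative fits. TFEB, a regulator of lysosome genes, also rose (8.49 ± 0.66 CPM in the knockout, against 5.98 ± 0.37 CPM in the parental libraries, SD, n = 3 each; edgeR adjusted p = 0.0344). The nuclear receptor gene ESRRA, whose product works with PGC-1alpha, fell: it was at 59.2, 53.3 and 59.0 CPM in the knockout and at 73.7, 76.1 and 100 CPM in the parental libraries (-0.54, adjusted p = 0.0363). GABPB1, a subunit of GABP, fell by 0.38 on the log2 scale (53.8 ± 2.4 CPM in the knockout, against 69.8 ± 4.0 CPM in the parental libraries, SD, n = 3 each; edgeR adjusted p = 0.0294). ESRRG, a relative of ESRRA, also fell, on 2, 3 and 1 reads in the knockout, against 13, 14 and 43 in the parental libraries (adjusted p = 0.0184). The calls of TFEB, ESRRA, ESRRG and GABPB1 were lost with any knockout library left out, those of TFEB and GABPB1 also without parental replicate 1, and those of TFEB and ESRRA without parental replicate 2. NRF1 (-0.13, adjusted p = 0.604), GABPA (-0.01, adjusted p = 0.963) and YY1 (-0.17, adjusted p = 0.348) did not pass. TFAM, the mtDNA transcription factor, was at 72.7, 76.0 and 67.2 CPM in the knockout and at 71.2, 63.1 and 105 CPM in the parental libraries (-0.15, adjusted p = 0.633).

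**Figure D5:**
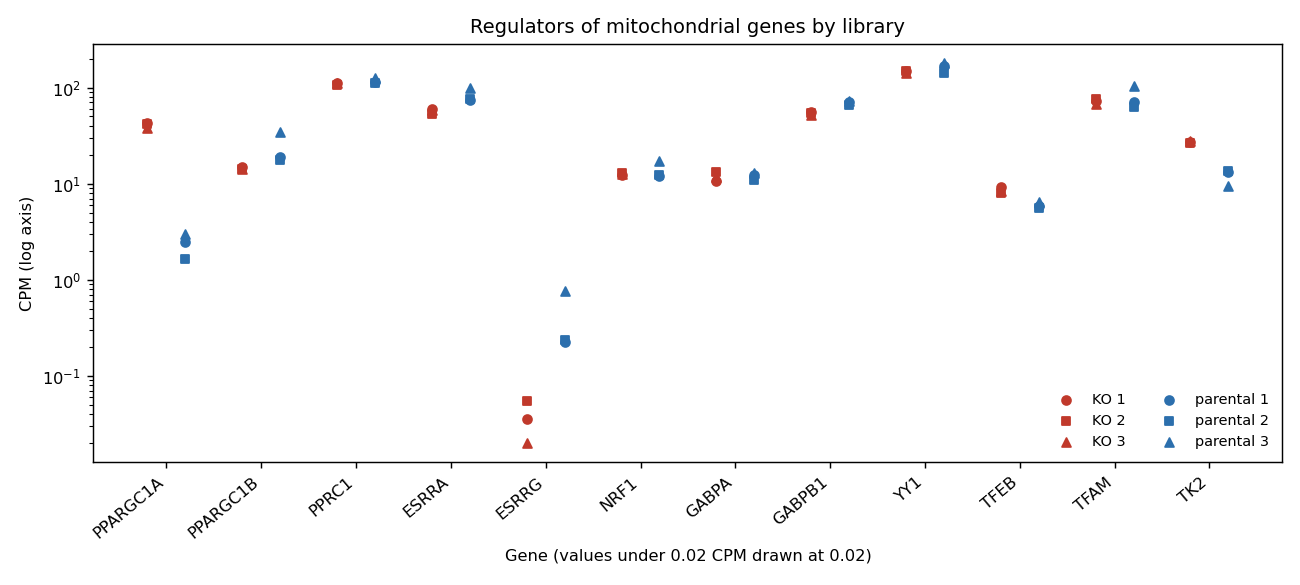
CPM on a log axis of 10 regulators, TFAM and TK2 in each library, with the 3 knockout libraries (KO 1 to 3) left of the 3 parental ones; values under 0.02 CPM are drawn at 0.02. PPARGC1A is at 38.0 to 43.2 CPM in the knockout, against 1.66 to 2.99 CPM in the parental libraries, while NRF1, GABPA, YY1 and TFAM overlap between the groups.

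Genes whose products assemble the complexes gave few calls with all 6 libraries, against 27.6% of all genes called. More passed without parental replicate 3, where 61.6% of all genes passed as well. Of 18 complex I assembly genes, 1 rose (DMAC1, 23.3 ± 1.3 CPM in the knockout, against 15.3 ± 2.2 CPM in the parental libraries, SD, n = 3 each; edgeR adjusted p = 0.0207) and 17 did not pass. None of the 4 complex II and none of the 4 complex V assembly genes passed. LYRM7, which guards the Rieske protein before it enters complex III, rose as 1 of 6 genes of that list, by 0.98 on the log2 scale. It was at 51.6, 52.4 and 46.7 CPM in the knockout and at 30.4, 25.2 and 21.1 CPM in the parental libraries (edgeR adjusted p = 0.00578) and passed in all 14 alternative fits. Of 23 complex IV assembly genes, 1 rose and 1 fell. CMC1, a copper-handling factor of that complex, rose (22.5 ± 2.3 CPM in the knockout, against 13.1 ± 3.1 CPM in the parental libraries, SD, n = 3 each; edgeR adjusted p = 0.0289). COA6, which helps load copper into COX2, fell (36.0 ± 1.1 CPM in the knockout, against 72.4 ± 29.5 CPM in the parental libraries, SD, n = 3 each; edgeR adjusted p = 0.0397). Of 25 genes of mtDNA maintenance and expression, 1 rose and none fell. This was TK2, the mitochondrial thymidine kinase, at 26.9, 26.3 and 27.5 CPM in the knockout and at 13.1, 13.4 and 9.36 CPM in the parental libraries (1.17, adjusted p = 0.00341 by edgeR), which passed in all 14 alternative fits. When parental replicate 3 was left out, 11 of 18 complex I, 2 of 4 complex II and 1 of 4 complex V assembly genes rose and none fell. For complex III 4 rose and 2 fell of 6, and for complex IV 11 rose and 3 fell of 23. In that fit 30.8% of all genes rose and 30.8% fell. Of the 25 genes of mtDNA maintenance and expression, 11 then rose and 5 fell, where 61.6% of all genes passed. The calls of DMAC1, CMC1 and COA6 were lost with any knockout library or parental replicate 1 left out, and those of DMAC1 and CMC1 also without parental replicate 2.

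Genes that feed electrons to the chain or exchange its products gave few calls as well with all 6 libraries, against 27.6% of all genes. Among 13 tested carriers and alternative electron donors, 2 fell and none rose. GPD2, the mitochondrial glycerol-3-phosphate dehydrogenase that feeds ubiquinone, was at 42.3, 41.0 and 39.4 CPM in the knockout and at 85.1, 83.1 and 161 CPM in the parental libraries (-1.42, edgeR adjusted p = 0.0117). ETFB, a subunit of the electron transfer flavoprotein, was at 11.97, 11.8 and 11.8 CPM in the knockout and at 18.4, 19.6 and 34.1 CPM in the parental libraries (-1.02, adjusted p = 0.0289). Of these 13, 3 rose and 4 fell without parental replicate 3, where 30.8% of all genes rose and 30.8% fell. Of 17 glycolysis genes, 2 rose and 1 fell. Without parental replicate 3, 8 rose and 3 fell, where 30.8% of all genes rose and 30.8% fell, 61.6% in either direction. ENO2 averaged 17.2 ± 1.2 CPM in the knockout, against 10.1 ± 0.49 CPM in the parental libraries, and PFKP averaged 697 ± 8.1 CPM in the knockout, against 503 ± 24 CPM in the parental libraries (SD, n = 3 each; edgeR adjusted p = 0.00442 and 0.0173). HK2, a hexokinase, fell by 1.58 on the log2 scale (47.0, 39.3 and 38.0 CPM in the knockout, against 90.4, 83.9 and 197 CPM in the parental libraries; edgeR adjusted p = 0.0197). ENO2 passed in all 14 alternative fits, whereas the calls of GPD2, ETFB, PFKP and HK2 were lost with any knockout library left out, and that of PFKP also without parental replicate 1 or 2.

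The 56 pseudogene symbols of the ATP5 and UQCR families carried few reads. Of these, 44 had 0 reads in all 6 libraries, 9 had 1 to 9 in all and 3 had at least 10. The 2 that could be tested, ATP5PBP5 and UQCRFS1P1, did not pass (edgeR adjusted p = 0.174 and 0.589). Exon bases were shared with another annotated gene for 45 of the 82 nuclear subunit genes, and for 33 of them the shared part was at least 10%.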

How the data were processed

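RNA-seq was measured in 6 libraries. The authors deposited raw read counts per gene symbol, made with TopHat2 2.1.1, HTSeq 0.11.0 and hg38, per the submitters' processing notes; the annotation, strand and overlap settings are not given in these sources. Unassigned classes (13.8% to 15.3% of reads) were left out. Counts were filtered with filterByExpr, TMM-scaled and tested in R 4.3.3 with edgeR 4.0.16 (two-sided quasi-likelihood F-test, robust, group as the only term), adjusted by Benjamini-Hochberg over 17809 genes with a threshold of 0.05. CPM use TMM-scaled library sizes. Positions and lengths are from GENCODE 29 on GRCh38, matched by symbol.

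The genes, lists and tests were chosen with earlier results of these data known. Named genes were those passing, the 13 mtDNA genes, core subunits, isoform pairs, the highest genes of a complex with none passing, and up to 2 passing genes of each list; others, chosen after their values were seen, are UQCRB, UQCR10, CYC1, NDUFAB1, NDUFA6, NDUFA9, NDUFV2, NDUFA7, NDUFA13, ATP5MC1, ATP5MC2, ATP5IF1, MT-RNR1, MT-RNR2, TFEB, ESRRA, GABPB1, NRF1, GABPA, YY1, TFAM, HK2 and the 2 pseudogenes. Alternatives were RLE and upper-quartile factors, mtDNA genes left out, other filters, DESeq2 1.42.0, limma-voom (limma 3.58.1), a replicate block and each library left out. The fit was checked on simulated counts. The result of 1 list is not reported here. The labels do not say whether replicate numbers pair the libraries. After each group's mean was taken off, same-numbered samples had correlations of -0.0487, 0 and -0.0743 over all genes tested. With 3 libraries per group these correlations cannot decide the question. All 13 mtDNA genes were lowest in replicate 1 within each group, and the cause was not tested.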

Additional observations from a re-analysis of the deposited data

How the results depend on the processing

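The count of rising nuclear subunit genes was 5 with all libraries and depended on the setting: 9 with upper-quartile factors, 4 with RLE factors, 6 with DESeq2, with limma-voom and with at least 1 CPM in 3 libraries, and 2 with no low-count filter. It ran from 0 to 55 with 1 library left out, the 55 without parental replicate 3. The 1 falling gene, COX6B2, passed under every alternative run. Falling mtDNA genes numbered 0, with 1 by DESeq2 and 0 to 1 with 1 library left out. Over all genes, 1221 to 5665 rose and 1471 to 5660 fell with 1 library left out, and the split of 2365 rising and 2547 falling became 2138 and 2792 with RLE factors, against 1871 and 2833 when low counts were kept. With the replicate number as a block, 1378 genes rose and 1662 fell, and 0 nuclear subunit genes rose. The labels do not say whether these numbers pair the libraries. Without parental replicate 3, 22 of the 26 nuclear subunit genes below 0 were above 0, and 13 of the 22 then passed. Among the genes named in the text, those that passed with the opposite sign were SDHB (range -0.49 to 0.24 with 1 library left out), COX5A (-0.14 to 0.18), ATP5F1A (-0.25 to 0.24), CYC1 (-0.46 to 0.31) and ATP5MC1 (-0.62 to 0.69). The cause of these shifts was not tested. The medians per complex and the mtDNA share of gene reads moved by less than the spread between replicates under each alternative. That spread takes in parental replicate 3 itself, so it cannot show that the medians are stable without that library. With 1 library left out the sign of several medians turned. The median log2 fold change ran from -0.11 to 0.29 for complex III, from -0.16 to 0.25 for complex V and from -0.19 to 0.06 for the mtDNA genes. Over 86 genes taken by the naming rule or added to the text, 965 of 1109 values from alternatives stayed on their side of the threshold, 112 no longer passed, 27 newly passed and 5 passed with the opposite sign. Low read counts limit the tests of genes such as NDUFV2 and ESRRG, and why NDUFV2 had few reads was not tested.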
